A study of Mus musculus with 9 samples.

Results

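Ogt and Tet2 encode enzymes that bind each other and that each depend on a nutrient or on oxygen. They are 2 of the 675 genes in the deposited expression table, picked by gene symbol because their levels differed widely between the OGD+Oba and OGD libraries at 1 h and 3 h. That difference is therefore given as a description with no test. Both genes were among the 580 with a mean of at least 1 FPKM (fragments counted per kilobase of transcript length and per size of library), which were the genes tested.

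RNA was sequenced from wild-type mouse brain microvascular endothelial cells, labelled as a cell line; such cells make up the wall of brain capillaries, the site of the blood-brain barrier. The cells were kept for 1, 3 or 6 h in 3 conditions. In OGD+Oba they had no oxygen, glucose or fetal bovine serum and received 3 µM obacunone, a limonoid from citrus fruit. In OGD (oxygen-glucose deprivation, a culture model of ischemia) the same 3 were withdrawn without obacunone, and normoxia was the control. The labels used here name no vehicle for the groups without obacunone. There were 9 groups of 1 library, and a difference between single libraries could not be checked against replicates.

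OGT, O-GlcNAc transferase, attaches N-acetylglucosamine to serine and threonine residues of nuclear and cytosolic proteins. Its sugar donor, UDP-GlcNAc, is made from glucose and glutamine by the hexosamine pathway, so the modification follows nutrient supply. A share of Ogt RNA is held in the nucleus with a retained intron in mouse and human cells. TET2 oxidises 5-methylcytosine in DNA, the first step of active demethylation, and needs oxygen, iron and 2-oxoglutarate to do so. TET2 binds OGT and brings it to chromatin.

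Ogt (NCBI gene 108155) lies on the plus strand of chromosome X, 101640060 to 101684351, and Tet2 (gene 214133) on the minus strand of chromosome 3, 133463679 to 133545139 (GRCm38, GENCODE). The 250 bases before a RefSeq start of each gene (build GRCm38.p6) are shown because the cells were deprived of oxygen. Capitals mark ACGTG or GCGTG on either strand, the core to which the oxygen-sensitive factor HIF binds. The Ogt stretch, chrX:101639801-101640050 on the plus strand, and the Tet2 stretch, chr3:133544391-133544640 on the minus strand, read 5′ to 3′ as follows.
Ogt: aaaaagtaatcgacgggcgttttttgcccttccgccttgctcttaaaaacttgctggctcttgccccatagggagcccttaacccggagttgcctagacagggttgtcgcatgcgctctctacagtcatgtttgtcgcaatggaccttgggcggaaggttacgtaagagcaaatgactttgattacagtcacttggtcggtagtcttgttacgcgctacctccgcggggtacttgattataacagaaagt
Tet2: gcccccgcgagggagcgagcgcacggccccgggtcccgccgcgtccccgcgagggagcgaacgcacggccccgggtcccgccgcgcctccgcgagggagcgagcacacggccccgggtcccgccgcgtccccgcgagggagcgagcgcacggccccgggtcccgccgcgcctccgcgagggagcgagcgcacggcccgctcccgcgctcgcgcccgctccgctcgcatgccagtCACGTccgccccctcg
The Tet2 stretch lies within the GENCODE span of Tet2, which extends further upstream, and the Ogt stretch lies outside the annotated gene. The Tet2 stretch held 1 match of ACGTG, on the reverse strand, and the Ogt stretch held 0 of either core. Of all 32851 RefSeq promoter stretches of this length, 38.6% held at least 1 of the cores, 16.6% ACGTG and 28.2% GCGTG. The Ogt stretch had 15 CpG dinucleotides and a GC content of 49.6%, and the Tet2 stretch 51 CpG and 83.6%, against a median of 6 CpG over all stretches. A match is a description of the letters and not a binding site.

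Ogt was the more abundant transcript in every library. Its level per length averaged 38.9 FPKM over the 9 libraries, at percentile 82.1 of tested genes, and that of Tet2 averaged 5.98 FPKM, at percentile 38.6. Ogt stood at 23.0, 40.0 and 57.7 FPKM in the OGD+Oba libraries at 1, 3 and 6 h. In the OGD libraries it stood at 50.4, 23.4 and 61.2 FPKM, and in normoxia at 40.4, 23.6 and 30.3 FPKM. The OGD+Oba level was higher at each later time, while the OGD level was lowest at 3 h, where it coincided with normoxia. Tet2 stood at 2.30, 6.54 and 9.18 FPKM in OGD+Oba. It stood at 5.53, 3.30 and 10.8 FPKM in OGD, and at 5.40, 5.83 and 4.92 FPKM in normoxia. Tet2 in OGD at 1 h lay within the normoxia range and in OGD+Oba at 3 h just above it, while the other deprived libraries lay below it (OGD+Oba at 1 h, OGD at 3 h) or above it (both at 6 h).

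**Figure D1:**
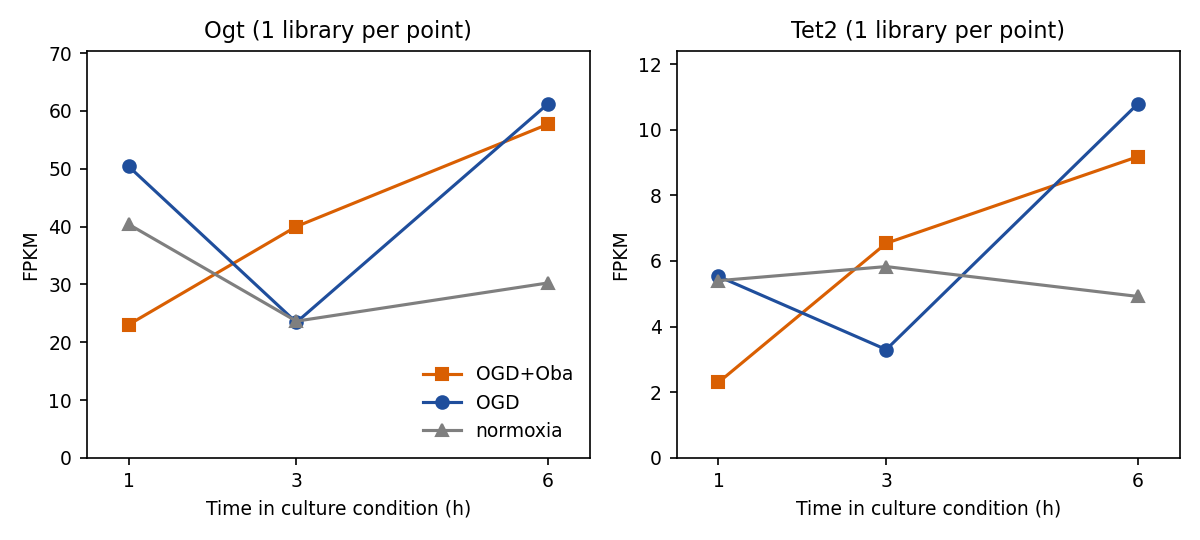
Levels of Ogt (left) and Tet2 (right) in FPKM against time in h for OGD+Oba (squares), OGD (circles) and normoxia (triangles), with 1 library per point and lines joining the times of a condition. In both genes OGD+Oba lies lowest at 1 h and highest at 3 h, and both deprived conditions lie above normoxia at 6 h, at 57.7 and 61.2 against 30.3 FPKM for Ogt.

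The order of the 9 libraries was much alike in the 2 genes. OGD+Oba at 1 h was lowest and OGD at 3 h second lowest in each, and OGD at 6 h was highest with OGD+Oba at 6 h second highest. The highest level was 2.66 times the lowest for Ogt and 4.69 times for Tet2. Their log2(FPKM + 1) values correlated over the 9 libraries with Pearson r = 0.83 and Spearman rho = 0.82, a description that rests on shared libraries and on the values that chose the genes. The Ogt level was between 4.05 times the Tet2 level, in normoxia at 3 h, and 10.01 times it, in OGD+Oba at 1 h. With 1 library a group no spread is known for any step of that order. The lowest 3 Ogt levels, 23.0, 23.4 and 23.6 FPKM, came from 3 different conditions.

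OGD+Oba against OGD asks whether obacunone alters the cells' answer to deprivation. At 1 h Ogt was at 23.0 FPKM in OGD+Oba against 50.4 in OGD, and Tet2 at 2.30 against 5.53. On the log2(FPKM + 1) scale, which understates changes of low genes, these are differences of -1.10 for Ogt and -0.98 for Tet2. At 3 h the sign was opposite: Ogt was at 40.0 FPKM in OGD+Oba against 23.4 in OGD, a difference of 0.75, and Tet2 at 6.54 against 3.30, a difference of 0.81. The 6 h difference did not choose Ogt and Tet2, although its OGD library took part in the choice of the listed genes. At 6 h Ogt was at 57.7 against 61.2 FPKM, a difference of -0.08, and Tet2 at 9.18 against 10.8, a difference of -0.21. The median size over all tested genes was 0.17, 0.14 and 0.11 at 1, 3 and 6 h. By the rule of at least 2-fold, 2.93% of tested genes were apart at 1 h, 1.21% at 3 h and 0.862% at 6 h; Ogt passed it at 1 h and Tet2 at no time. The processing decides these calls at 1 h: Ogt had -0.95 after median-ratio scaling and did not pass, and Tet2 had -1.23 with a pseudocount of 0.1 and passed. The authors' deposited table gives log2 ratios of -0.99, 0.75 and -0.09 for Ogt and -1.13, 0.98 and -0.24 for Tet2.

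Each gene ranked near the edge of the table in opposite directions at those times, which follows from the choice of Ogt and Tet2 on these values. Ogt had the ninth lowest difference of 580 genes at 1 h and the ninth highest at 3 h, and Tet2 ranked 13 from the lowest at 1 h and 8 from the highest at 3 h. With a size of at least 0.4 at both times, a value chosen after the data were seen, 21 genes were lower at 1 h and higher at 3 h, as Ogt and Tet2 were. The reverse order was found in 0 genes, while 4 were lower at both times and 7 higher at both. The 19 others included Far2, a fatty acyl-CoA reductase, with -1.27 and 0.70, and Ptbp2, a splicing regulator, with -1.19 and 0.61. They also included Rictor, a subunit of mTOR complex 2, with -0.63 and 0.43, and Tiparp, a target of the dioxin receptor, with -0.45 and 0.45. At 6 h the 21 genes had OGD+Oba minus OGD differences of -0.40 to 0.40, with a median of -0.08.

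**Figure D2:**
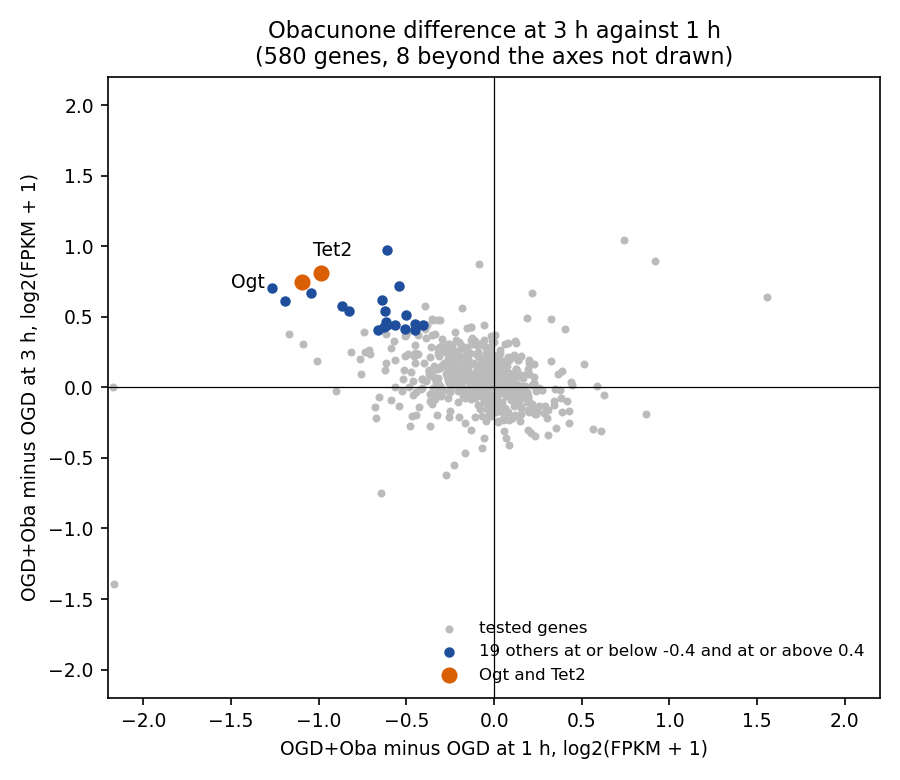
OGD+Oba minus OGD at 3 h (vertical) against 1 h (horizontal), both as differences of log2(FPKM + 1), for the 580 tested genes, of which 8 lie beyond the axes. Ogt and Tet2 (large orange points) and 19 other genes (blue) lie at the upper left, at or below -0.4 at 1 h and at or above 0.4 at 3 h, and 0 genes lie as far out at the lower right.

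Both genes have long transcripts. The choice did not use length itself, but it used differences that moved with length across the table, as described below. The longest annotated coding transcript of Ogt is 5384 bases in 22 exons, at percentile 84.3 of the 571 tested genes with a GENCODE model, and that of Tet2 is 9179 bases in 11 exons, at percentile 97.8. The median was 3089 bases. GENCODE also lists 3 retained-intron transcripts for Ogt and 5 for Tet2, against a median of 0. The table's single FPKM value a gene does not separate these isoforms. Of the 31-base words of their transcripts, 0.111% for Ogt and 0.437% for Tet2 occur in other genes. No annotated gene overlaps Ogt, and the antisense gene Gm42567 overlaps Tet2 from 133545097 to 133545139.

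Transcript length moved with the OGD+Oba minus OGD difference across the table, and its sign changed with time as in Ogt and Tet2. Tested genes were put in 4 length classes of 142 or 143 genes. In the class with the longest transcripts (4503 to 13125 bases, 143 genes) the median difference was -0.20 at 1 h, 0.17 at 3 h and -0.07 at 6 h. In the shortest class (411 to 2097 bases, 143 genes) it was 0.07, -0.00299 and 0.05. Across the 571 genes, which share libraries and are not independent replicates, Spearman's rho of difference with length was -0.37, 0.33 and -0.25. Pearson r with log2 length was -0.23, 0.20 and -0.20. For differences from normoxia at 1, 3 and 6 h, rho was 0.15, -0.05 and 0.02 in OGD and -0.23, 0.02 and -0.02 in OGD+Oba. Ogt and Tet2 both fall in the longest class. Ogt stood -0.90 from that class's median at 1 h and 0.58 from it at 3 h, and Tet2 stood -0.79 and 0.64 from it. They were the lowest 2 of the 143 genes at 1 h and the highest 2 at 3 h. These 1 h and 3 h values chose the 2 genes, so extreme ranks and distances follow from the choice. The part of transcript length in the result was not tested.

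**Figure D3:**
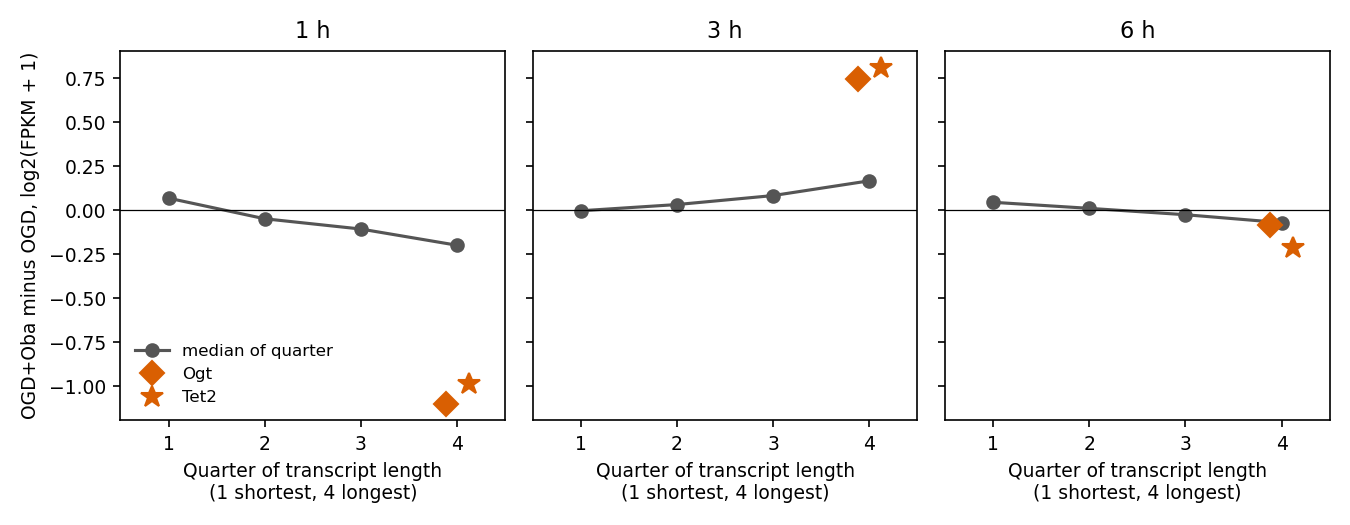
Median OGD+Oba minus OGD difference of log2(FPKM + 1) in 4 classes of transcript length, shortest to longest (grey circles), with Ogt (diamond) and Tet2 (star) at their own values, at 1, 3 and 6 h. The medians step down with length at 1 h and up at 3 h, to -0.20 and 0.17 in the longest class. Both genes lie well outside the medians at 1 h and 3 h, where their values chose them. At 6 h Ogt lies at -0.08, near its class median of -0.07, and Tet2 below it at -0.21.

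The effect of withdrawing oxygen, glucose and serum is read from OGD against normoxia. Ogt was at 50.4 FPKM in OGD against 40.4 in normoxia at 1 h, a difference of 0.31, at percentile 95 of tested genes. At 3 h it was at 23.4 against 23.6, a difference of -0.01 that is 0.06 after median-ratio scaling and 0.05 as the authors' deposited log2 ratio. At 6 h it was at 61.2 against 30.3 FPKM, a difference of 0.99. Tet2 was at 5.53 against 5.40 at 1 h (0.03), at 3.30 against 5.83 at 3 h (-0.67) and at 10.8 against 4.92 at 6 h (0.99). At 3 h Tet2 in OGD lay below all normoxia libraries, but the size of its difference was close to the median size over tested genes, 0.63. Apart from Ogt at 1 h these differences were ordinary for the table, with Ogt at percentiles 49.3 and 60.5 at 3 h and 6 h and Tet2 at 57.9, 21.6 and 60.7 at 1, 3 and 6 h. In FPKM the 6 h ratio was 2.02 for Ogt and 2.19 for Tet2. Neither reached 2-fold on the log2(FPKM + 1) scale, at which 3.79%, 23.3% and 68.3% of tested genes were apart at 1, 3 and 6 h; with a pseudocount of 0.1 both did at 6 h, at 1.01 and 1.12. Every one of the 675 listed genes had an authors' log2 ratio of at least 1 in size at 6 h (350 up, 325 down), so the 6 h difference describes genes chosen on it.

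OGD+Oba was set against the same normoxia libraries as OGD, so the comparisons share them. Ogt was at 23.0 against 40.4 FPKM at 1 h (-0.78), at 40.0 against 23.6 at 3 h (0.73) and at 57.7 against 30.3 at 6 h (0.91). Tet2 was at 2.30 against 5.40 FPKM at 1 h (-0.96), at 6.54 against 5.83 at 3 h (0.14) and at 9.18 against 4.92 at 6 h (0.78). At 1 h both genes were thus lower in the OGD+Oba library than in normoxia, while Ogt was higher in the OGD library. At 3 h Ogt lay above normoxia in the OGD+Oba library, and Tet2 lay below it in the OGD library. At least 2-fold differences were seen in 5% of tested genes at 1 h, 22.6% at 3 h and 68.4% at 6 h, and neither gene reached that size on this scale, although Tet2 did at 1 h with a pseudocount of 0.1, at -1.20.

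How far levels differed without deprivation is seen in the normoxia libraries. Ogt was lower at 3 h than at 1 h in normoxia, at 23.6 against 40.4 FPKM, a difference of -0.75 that exceeded those of 86.4% of tested genes in size. From 3 h to 6 h in normoxia it differed by 0.34. Tet2 differed by 0.09 and -0.21 over the same steps, where the median size over all tested genes was 0.32 and 0.28. Time in culture and differences between libraries cannot be told apart in these pairs.

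A test was possible with the 2 deprived libraries of each time (OGD+Oba and OGD) taken as a pair and set against the normoxia library in 1 limma fit over all 580 genes. The mean of a pair is independent of the difference within it that chose the genes only if both libraries vary equally. With 1 library a group that could not be checked, and the 1 h and 3 h pairs hold the libraries that chose the genes. The difference within a pair also widens the error. At 1 h Ogt differed by -0.24 ± 0.47 (SE; adjusted p = 0.954) and Tet2 by -0.46 ± 0.46 (adjusted p = 0.887). At 3 h Ogt differed by 0.36 ± 0.47 (adjusted p = 0.510) and Tet2 by -0.26 ± 0.46 (adjusted p = 0.635). Neither passed at either time, and the 95% interval at 3 h ran from -0.77 to 1.496 for Ogt and from -1.39 to 0.86 for Tet2. The fit called 4.14% of tested genes at 1 h, 0.172% higher and 3.97% lower, and 65.7% at 3 h, 35% higher and 30.7% lower.

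At 6 h both deprived libraries lay above all normoxia libraries in both genes, at 57.7 and 61.2 against 23.6 to 40.4 FPKM for Ogt and at 9.18 and 10.8 against 4.92 to 5.83 FPKM for Tet2. The pair differed from normoxia by 0.95 ± 0.47 for Ogt (adjusted p = 0.0890) and by 0.89 ± 0.46 for Tet2 (adjusted p = 0.105). The fit called 96.2% of tested genes at 6 h, 52.2% higher and 44% lower, and Ogt and Tet2 were among the 22 that it did not call. The gap between OGD+Oba and OGD that chose Ogt and Tet2 also widened their errors. Their not being called follows in part from that choice. Clcn6, Far2 and Ptbp2, whose OGD+Oba minus OGD differences also had opposite signs at 1 h and 3 h, were among those 22 as well. Without the 1 h libraries the same differences passed, with adjusted p = 0.00747 for Ogt and 0.0208 for Tet2. That setting drops the 1 h pair, whose gap between OGD+Oba and OGD took part in the choice of Ogt and Tet2. All listed genes were chosen on OGD against normoxia at 6 h, so the 6 h calls describe chosen genes and are no independent test. The 6 h median over all tested genes was 0.76, which median-ratio scaling moved to 0.52. After that scaling Ogt and Tet2 had 0.61 and 0.59.

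Within deprivation, the mean of the pair was higher at 6 h than at 3 h in both genes, and so was each of its libraries. Ogt in the pair was 0.93 ± 0.38 higher at 6 h than at 3 h (adjusted p = 0.0961) and Tet2 0.94 ± 0.38 higher (adjusted p = 0.0917), at percentiles 93.8 and 94.3 of tested genes. Neither passed over all genes, of which 38.8% were called. Without the 1 h libraries both passed, with adjusted p = 0.0104 and 0.0186. Between 3 h and 1 h Ogt differed by -0.15 ± 0.38 (adjusted p = 0.748) and Tet2 by 0.29 ± 0.38 (adjusted p = 0.529), where 50.3% of genes were called. The deprivation effect at 3 h minus that at 1 h was 0.60 ± 0.66 for Ogt (adjusted p = 0.478) and 0.20 ± 0.66 for Tet2 (adjusted p = 0.809), against 42.1% of genes called. The 6 h OGD library took part in the choice of the listed genes. The 1 h pair left out above had a gap that took part in the choice of Ogt and Tet2.

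The width of these errors came from the pairs. The residual SD within pairs was 0.54 for Ogt and 0.53 for Tet2, at percentiles 97.8 and 97.4 of tested genes, whose median was 0.12. Most of it is the OGD+Oba minus OGD difference at 1 h and 3 h. With errors of this width the 6 h differences from normoxia, 0.95 for Ogt and 0.89 for Tet2, were not called. Smaller differences from normoxia were not detectable for either gene.

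Other enzymes that use oxygen and 2-oxoglutarate, as TET2 does, were higher in the deprived pair at 3 h and 6 h. Of a list of 48 such enzymes 8 were in the table, Tet2 included. Of these, 7 rose at 3 h, beside 35% of tested genes, and 7 at 6 h, beside 52.2%. Tet2 was the gene that did not pass, and its difference from the other 7 was not tested. Its SE at 3 h was 0.46, against 0.08 to 0.15 in the other 7. The gap between OGD+Oba and OGD that chose Tet2 widened that error, so not passing follows in part from the choice. At 1 h 0 of 8 passed. Because all listed genes were chosen on OGD against normoxia at 6 h, counts of calls at 6 h are close to fixed for any list. The median difference of the 8 was -0.03, 0.95 and 1.43 at 1, 3 and 6 h, beside -0.05, 0.05 and 0.76 over all tested genes. Egln3 and Egln1, the prolyl hydroxylases that mark HIF for destruction, rose at 3 h by 2.08 ± 0.08 (adjusted p = 1.13e-05) and 1.12 ± 0.10 (adjusted p = 0.000266). The histone demethylases Kdm3a and Kdm4b rose at 3 h by 1.46 ± 0.15 and 0.74 ± 0.15. The RNA demethylase Alkbh5 rose by 0.93 ± 0.11, the dioxygenase Jmjd6 by 0.97 ± 0.08 and P4ha1, a collagen prolyl hydroxylase subunit, by 0.63 ± 0.08. In those 7 genes OGD+Oba minus OGD ran from -0.18 to 0.14 at 1 h and from -0.07 to 0.36 at 3 h. Tet2 had -0.98 and 0.81, the values that chose it. Egln1, Egln3, Kdm3a and P4ha1 are also in the list of HIF-1 targets.

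**Figure D4:**
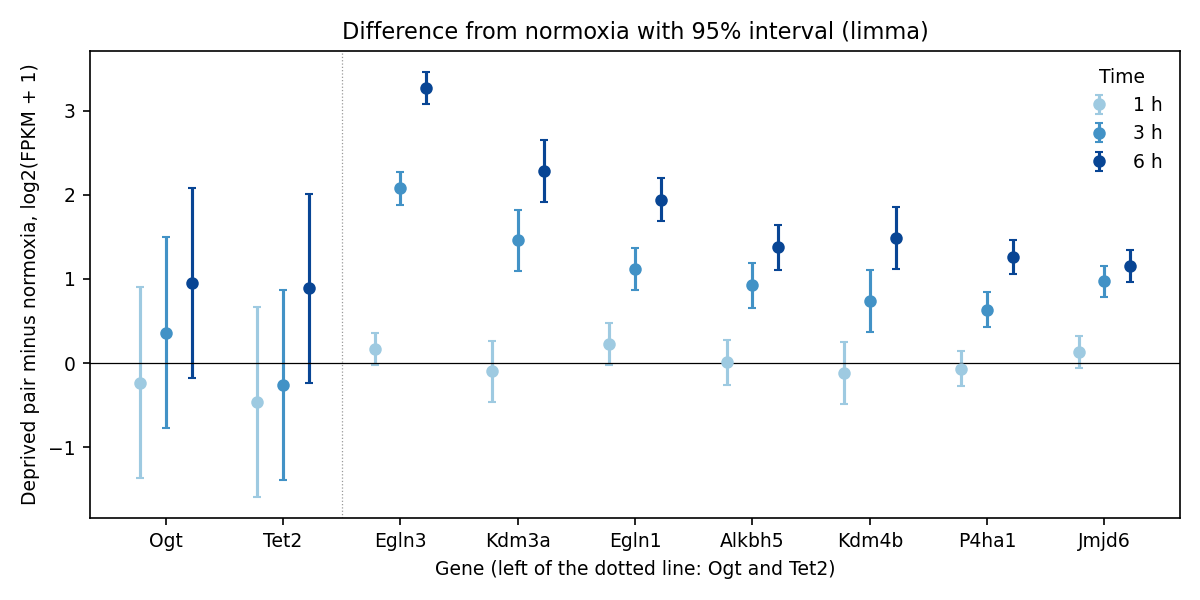
Deprived pair minus normoxia in log2(FPKM + 1) from the limma fit at 1, 3 and 6 h (light to dark points) with 95% intervals, for Ogt, Tet2 and the 7 other listed oxygen- and 2-oxoglutarate-dependent enzymes. The intervals of Ogt and Tet2 include 0 at each time, 0.95 and 0.89 being their values at 6 h, while those of the other 7 genes lie above 0 at 3 h and 6 h.

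Partners of either enzyme were scarce in the table. Of 19 genes of the hexosamine pathway and O-GlcNAc cycling only Ogt was listed. Of 25 genes of DNA methylation and its removal 2 were listed, Tet2 and Gadd45b, a stress gene that has been tied to demethylation. Gadd45b stood at 14.6, 18.6 and 21.1 FPKM in OGD+Oba, at 11.1, 17.3 and 21.1 in OGD and at 13.7, 5.81 and 4.15 in normoxia at 1, 3 and 6 h. It rose at 3 h by 1.48 ± 0.16 (adjusted p = 0.000575) and at 6 h by 2.10 ± 0.16, and was not called at 1 h. The other genes of these lists were not analysed here.

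Of 10 glucose-sensing genes 6 were tested, and 1 rose and 2 fell at 1 h; at each later time 4 rose and 2 fell. The fit called 4.14%, 65.7% and 96.2% of all tested genes at 1, 3 and 6 h, so the 6 h count is near the background. The medians of the 6 were -0.09, 1.42 and 1.98 at 1, 3 and 6 h. Txnip, an arrestin that limits glucose uptake, fell at 3 h by 3.55 ± 0.16 on the log2 scale. Of 32 HIF-1 targets 21 were tested, and 0 rose at 1 h, 20 at 3 h and 21 at 6 h, beside 0.172%, 35% and 52.2% of tested genes. All listed genes were chosen on OGD against normoxia at 6 h, so being called then was close to fixed for each target. The medians of these targets were -0.01, 1.53 and 2.29. Of 34 splicing kinases and SR proteins, named because Ogt RNA is subject to regulated splicing, 3 were tested. Srsf1 and Tra2b, splicing factors of the SR family and its relatives, fell at 3 h by 0.46 ± 0.08 and 0.32 ± 0.10, and the kinase Dyrk1b had 0.27 ± 0.18 and did not pass. At 6 h 1 of the 3 rose and 2 fell, where 96.2% of tested genes were called, and at 1 h 0 passed, where 4.14% were; both counts are near the background.

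The genes whose course over the 9 libraries was most like that of Ogt were Far2, Clcn6, Wnk3, B3gat2, Glt1d1 and Carf, with Pearson r of 0.95, 0.91, 0.90, 0.90, 0.90 and 0.86 among 546 named genes. This likeness is a description, since the genes share libraries and Ogt was picked for its course. Far2 ordered the 9 libraries exactly as Ogt did, with a Spearman rho of 1. It stood at 0.93, 2.43 and 5.03 FPKM in OGD+Oba, at 3.64, 1.11 and 5.10 in OGD and at 3.54, 1.95 and 2.03 in normoxia. Clcn6, a chloride transporter of late endosomes, stood at 1.49, 3.16 and 3.79 FPKM in OGD+Oba, at 3.55, 1.79 and 3.83 in OGD and at 3.31, 2.29 and 1.66 in normoxia.

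For Tet2 the most alike were Ptbp2, Carf, Khnyn, Arl5b, Unc13a and Cd274, with Pearson r of 0.98, 0.96, 0.96, 0.94, 0.94 and 0.94. Carf, a calcium-responsive transcription factor, was the 1 gene in both sets of 6. Ptbp2 stood at 4.20, 11.2 and 17.4 FPKM in OGD+Oba, at 10.9, 6.96 and 17.9 in OGD and at 11.2, 10.3 and 8.95 in normoxia. Khnyn, a cofactor of antiviral RNA decay in human cells, stood at 3.05, 7.27 and 10.7 FPKM in OGD+Oba, at 5.23, 4.69 and 12.4 in OGD and at 5.02, 5.70 and 5.59 in normoxia. Over all tested genes the median r was 0.30 with Ogt and 0.18 with Tet2. Tet2 itself ranked 14 among 579 genes in likeness to Ogt, and Ogt ranked 24 in likeness to Tet2.

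**Figure D5:**
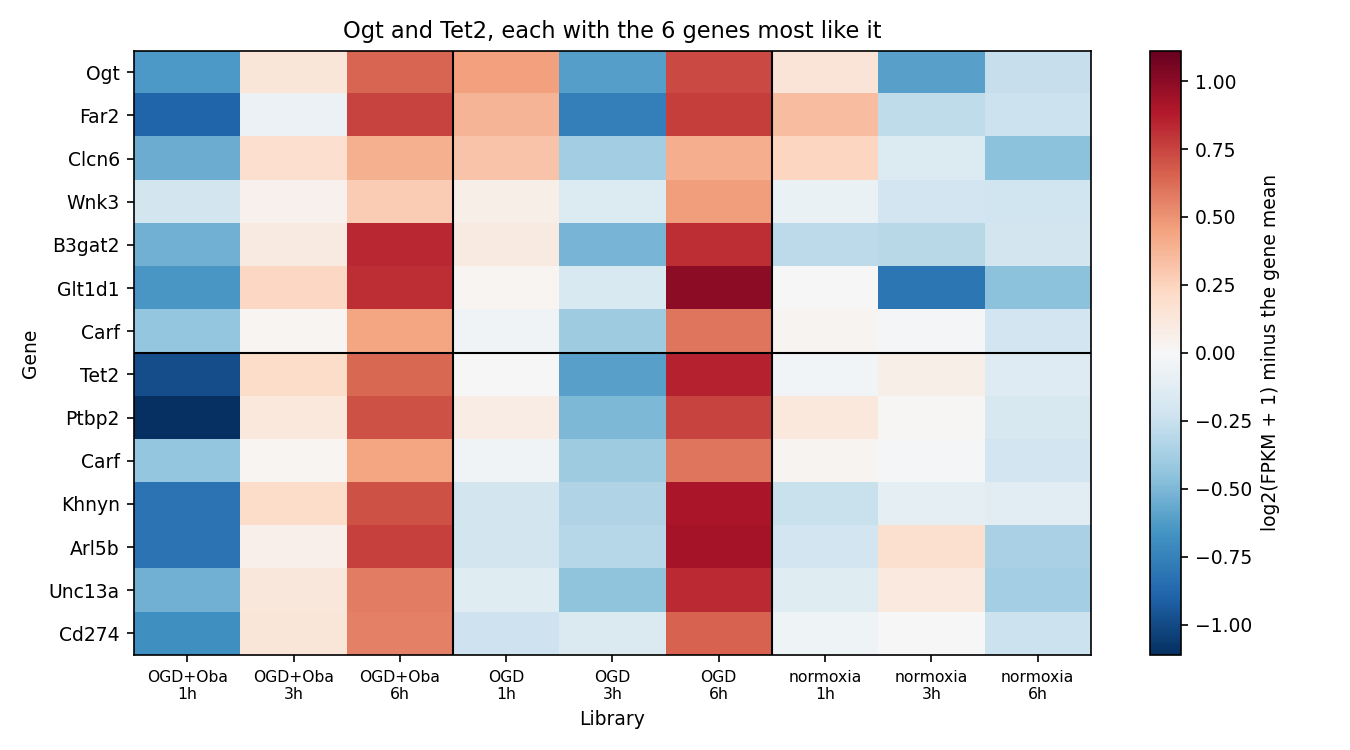
Colour shows log2(FPKM + 1) minus the gene's mean in each of the 9 libraries (columns: OGD+Oba, OGD and normoxia, each at 1, 3 and 6 h) for Ogt and Tet2, each above the 6 genes most like it. In both blocks the OGD+Oba library at 1 h and the OGD library at 3 h are blue and both deprived libraries at 6 h are red.

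Sums of FPKM over the listed genes ran from 14198 to 22631 a library and are not depths; the depth is unknown, and the lowest FPKM above 0 was 0.01. Of 16 endothelial markers only Flt1 was listed, at 0.06 to 0.11 FPKM in OGD+Oba, 0.05 to 0.26 in OGD and 0.23 to 0.68 in normoxia, so the labelled cell type could not be checked. Of other cell types, Cldn4 (1 of 6 epithelial markers) stood at 107 to 307 FPKM in OGD+Oba, 109 to 308 in OGD and 60.9 to 138 in normoxia. Tubb3 (1 of 6 neuronal markers) stood at 3.32 to 5.26, 3.43 to 6.76 and 7.17 to 10.7 FPKM in the same order of conditions. The part of other cells in the levels of Ogt and Tet2 was not tested, and fewer cells of a type cannot be told apart from less RNA per cell.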

How the data were processed

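Gene expression was measured in 9 libraries of 1 sample a group. Per the submitters' processing notes, HISAT2 2.0.4 and the GRCm38 assembly were used; the counter and annotation are not given in the sources used here. The authors deposited FPKM values for 675 genes, per the file headers, and their own log2 ratios between libraries. All listed genes pass a log2 ratio of 1 in size for OGD against normoxia at 6 h. No counts were used, so the precision that depth gives is unknown.

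Differences are of log2(FPKM + 1). The 580 genes whose mean reached 1 FPKM were fitted with limma 3.58.1 in R 4.3.3 (with trend), with 1 mean a time for normoxia and 1 for the deprived pair. The residual degrees of freedom are 3 and the prior ones 3.24. Each single normoxia library is taken to vary as the pairs do. The p values rest on the spread between OGD+Oba and OGD within each time. That spread holds any effect of obacunone as well as differences between single libraries, which may be technical. P values were adjusted by Benjamini-Hochberg over all 580 genes with a threshold of 0.05. The fit was tested on simulated data. The simulated spread was the same for all genes and narrower than that within the pairs for Ogt and Tet2. Comparisons of 2 libraries carry no test and were counted at 2-fold.

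Named genes were Ogt, Tet2, listed members of the hexosamine, DNA methylation and 2-oxoglutarate lists, and the 6 most and 3 least like each gene by Pearson correlation, predicted genes left out. Glucose-sensing, HIF-1, splicing and 8 marker lists were also described; markers of pericytes and smooth muscle, astrocytes, microglia, oligodendrocytes and fibroblasts were not analysed here. Far2, Ptbp2, Rictor and Tiparp among the 21 genes, and Txnip, Srsf1, Tra2b and Dyrk1b, were picked with their values known. The members and lists were chosen with earlier results of these data known. Alternatives were a pseudocount of 0.1, no floor, a floor of 5 FPKM, median-ratio scaling over the listed genes, limma without trend, an obacunone term, a 1.5-fold size, and leaving out each time.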

Additional observations from a re-analysis of the deposited data

Results flagged for a closer look

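The OGD+Oba minus OGD difference had opposite signs at 1 h and 3 h in both genes, with 1 library on each side at each time. As log2(FPKM + 1) it was -1.10 for Ogt at 1 h and 0.75 at 3 h, and -0.98 for Tet2 at 1 h and 0.81 at 3 h. The difference between the times was not tested, and the genes were chosen for it.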

How the results depend on the processing

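No difference of Ogt or Tet2 changed sign in the limma fit under any alternative run. Leaving out the 1 h libraries, the sole setting that changed their calls, made 4 of them pass: deprived against normoxia at 6 h (0.95 for Ogt and 0.89 for Tet2) and deprived 6 h against 3 h (0.93 and 0.94); the other settings gave adjusted p up to 0.192, 0.212, 0.127 and 0.120. That setting removes the pair with the widest spread of both genes, a spread that took part in their choice. The listed genes were also chosen on OGD against normoxia at 6 h. Median-ratio scaling called 15 genes in place of 24 for deprived against normoxia at 1 h. It turned deprived 6 h against 3 h to 97 higher and 102 lower, against 169 and 56. A floor of 5 FPKM, which tests 375 genes, called 368 at 6 h. For OGD+Oba against OGD the counts at 2-fold were 17, 7 and 5 at 1, 3 and 6 h; they were 32, 15 and 8 with a pseudocount of 0.1, 6, 2 and 2 with a floor of 5 FPKM, and 50, 22 and 9 at 1.5-fold. At 1.5-fold OGD and normoxia were apart in 46 and 312 genes at 1 h and 3 h, and OGD+Oba and normoxia in 68 and 326, with 45 at 1 h with a pseudocount of 0.1. For Tet2 in OGD+Oba against OGD the pseudocount of 0.1 gave -1.23 at 1 h and 0.97 at 3 h, and median-ratio scaling -0.87 and 0.70. No paired analysis was possible because the labels give no replicate numbers, and libraries are matched by time alone. A limma fit with an obacunone term over the time-matched OGD+Oba and OGD libraries again set the deprived pair against normoxia. At 6 h that comparison with normoxia gave adjusted p = 0.0606 for Ogt and 0.0824 for Tet2. The obacunone term itself was not tested. With 1 library a group, the spread between repeated cultures is unknown.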

Other observations

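The courses least like that of Ogt over the 9 libraries were those of Zfp825, Smim19 and Clmp, with Pearson r of -0.77, -0.77 and -0.75, and those least like that of Tet2 were Clmp, Actr5 and Spryd4, with -0.82, -0.79 and -0.78. Clmp, a cell adhesion molecule, was in both sets, at 3.22, 1.97 and 1.29 FPKM in OGD+Oba, 2.42, 2.46 and 1.43 in OGD and 2.65, 2.48 and 3.44 in normoxia at 1, 3 and 6 h. Its OGD+Oba minus OGD differences were 0.30, -0.22 and -0.09, opposite in sign to those of Ogt and Tet2 at 1 h and 3 h.

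The 250 bases before the Tet2 start hold a 22-base word, cacggccccgggtcccgccgcg, in 4 copies. Of the 32851 promoter stretches of this length, 1, that of Tet2, held 4 copies of it. The word was taken from the Tet2 stretch as the longest with at least 4 copies, so that stretch had to hold it. Repeats of other words in other genes' stretches were not counted.

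Of the 21 genes lower at 1 h and higher at 3 h in OGD+Oba against OGD, 16 (76.2%) were higher in the deprived pair than in normoxia at 6 h, beside 316 of 580 tested genes (54.5%). The median longest transcript of the 18 with a gene model was 4044.5 bases, beside 3089 over tested genes. The set was chosen after its values were seen, and neither value was tested.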
